A study of Mus musculus with 8 samples.

Results

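Oxidative phosphorylation is carried out by 5 protein complexes of the inner mitochondrial membrane, and most of their subunits are encoded in the nucleus. Their transcripts were read in bulk liver RNA from 8 mice. The genes were chosen by name: the numbered Ndufa, Ndufb, Ndufc, Ndufs and Ndufv genes of complex I, Sdha to Sdhd of complex II, and Cyc1 with the Uqcr genes of complex III. The Cox4 to Cox8 genes of complex IV and the Atp5 genes of complex V completed the set, and names ending in -ps or holding Rik were left out. This gave 86 gene IDs with 85 symbols among 53816 gene IDs: 36 for complex I, 4 for complex II, 9 for complex III, 19 for complex IV and 18 for complex V.

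All 8 mice had undergone bile duct ligation, an operation that stops bile outflow and injures the liver, so no unoperated liver is part of the comparison. The control group comprised 4 wild-type mice, and the other group comprised 4 mice whose labels give Myc overexpression in liver sinusoidal endothelial cells. The sources used here do not give the promoter or Cre line behind that overexpression, the age and sex of the mice or the time after ligation. RNA came from whole liver, in which endothelial cells are a small part, so a value in bulk tissue cannot tell fewer cells of a type from less RNA per cell.

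Complexes I and II pass electrons from NADH and succinate to ubiquinone, complex III passes them on to cytochrome c, and complex IV (cytochrome c oxidase) hands them to oxygen. Complexes I, III and IV pump protons, and complex V, the ATP synthase, uses the gradient to make ATP. The mitochondrial genome encodes a few core subunits of every complex except complex II. Hepatocytes are rich in mitochondria, and the transcription factor Myc is known in other settings to act on genes of mitochondrial biogenesis.

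Levels are given as TPM, a share of all transcripts that is scaled for transcript length and library total. Group values are means ± SD over 4 libraries. Differences are Myc-labelled minus control on the log2(TPM + 1) scale, which understates the change of low genes. Errors of differences are SE from limma, which fits all genes together. Depth could be read only as aligned bases, 5.29 to 6.74 Gb a library, worked out from the deposited coverage and FPKM; read counts were not analysed here. The liver label was matched by hepatocyte transcripts: albumin (Alb) stood at 41497 to 95736 TPM, and all 14 hepatocyte markers passed the filter.

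Myc itself did not follow the labels, so the libraries are called Myc-labelled. Control replicates 1 to 4 had 272, 207, 554 and 89.2 TPM of Myc, and Myc-labelled replicates 1 to 4 had 339, 356, 25.6 and 249 TPM. The lowest of the 8 values belonged to a Myc-labelled library and the highest to a control. The log2 difference was -0.45 ± 0.95 (limma adjusted p = 1.0). It was 0.43 when Myc-labelled replicate 3 was left out. The sources used here do not say if transcripts of a transgene enter this value. A pair of libraries stood apart in the subunits. Myc-labelled replicate 3 was low and control replicate 1 was high, so the differences of the subunits named here are also given without the first of them, and some without the second.

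The 86 genes together took 0.998% to 1.63% of all TPM in a library. Summed, they reached 16293, 13381, 13848 and 12891 TPM in control replicates 1 to 4. Myc-labelled replicates 1 to 4 reached 15985, 15823, 9979 and 14820 TPM. The Myc-labelled group thus held the lowest library as well as 3 that were above 3 of the 4 controls. The means were nearly equal, at 14103 ± 1511 TPM in control livers and 14152 ± 2829 TPM in Myc-labelled livers. Without Myc-labelled replicate 3 the mean of the remaining Myc-labelled libraries was 15542 ± 631 TPM.

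Each complex showed the same picture in its summed level. Complex I measured 3717 ± 530 TPM in control livers and 3729 ± 730 TPM in Myc-labelled livers. Complex II measured 609 ± 20.8 and 626 ± 135 TPM, and complex III 1700 ± 140 and 1729 ± 360 TPM, in the same order. Sums of complex IV were 3235 ± 480 and 3208 ± 547 TPM, and those of complex V 4842 ± 352 and 4860 ± 1066 TPM. Over all 8 libraries the 2 group means of each complex differed by less than the SD of either group. With Myc-labelled replicate 3 left out, the Myc-labelled means were 4089 ± 143, 689 ± 59.3, 1904 ± 100.5, 3480.0 ± 64.1 and 5379 ± 289 TPM for complexes I to V. They then lay above the control means by more than either SD for complexes II, III and V, but not for complexes I and IV, whose control SDs were larger than the difference. The share that each complex took of the summed subunits also stayed within narrow bounds over the 8 libraries. It was 25.6% to 27.6% for complex I, 3.91% to 4.69% for complex II and 11.7% to 12.4% for complex III. Complex IV took 21.9% to 24.1%, and complex V, with the largest share, 32.7% to 35.1%.

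**Figure D1:**
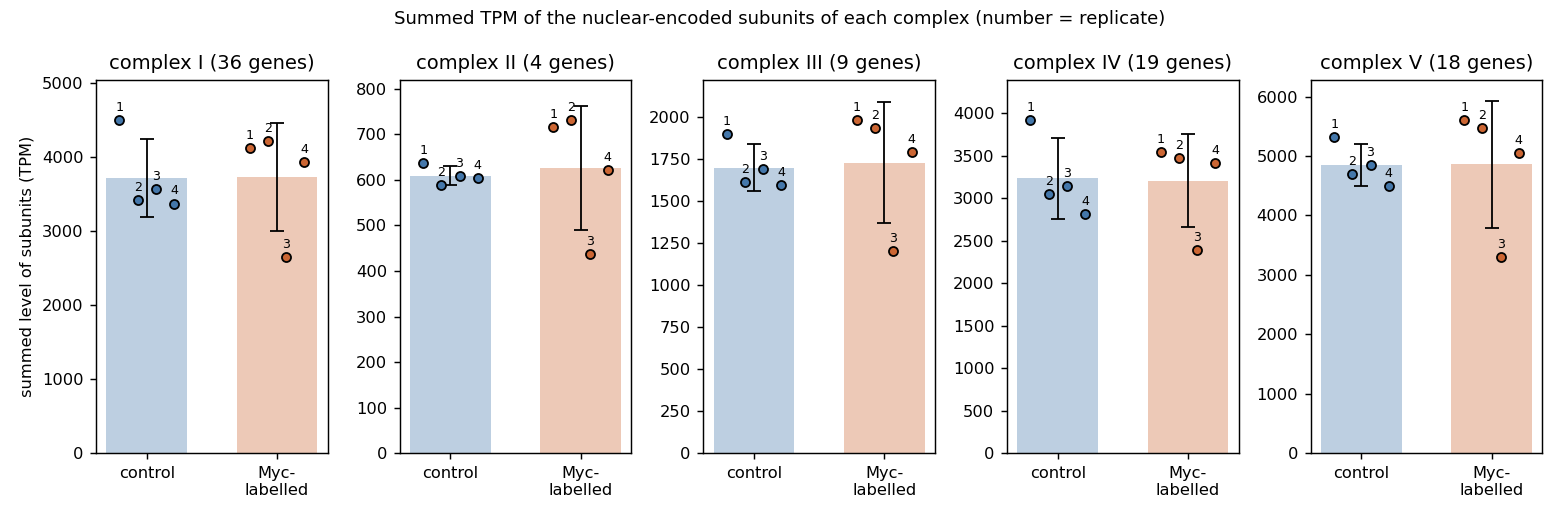
Summed TPM of the nuclear-encoded subunits of complexes I to V (one panel each) in 4 control and 4 Myc-labelled libraries. Points are libraries numbered by replicate, bars are means and lines are ± SD; in each panel the means are close, Myc-labelled replicate 3 is the lowest point, and control replicate 1 is the highest control.

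Gene by gene, no subunit was called different between the groups. Of the 86 genes, 78 had a mean of at least 1 TPM and were tested with all other such genes. With limma, 0 of these 78 passed an adjusted p of 0.05, as did 0% of the 13055 genes tested. At an unadjusted p under 0.05 there were 0 subunits too, against 1.86% of all genes. In 0 subunits did all 4 values of one group lie above those of the other, which 1.26% of all genes did. The log2 difference was above 0 in 36 subunits and below 0 in 42, where 58.0% of all genes were above 0. The median was -0.01 for the subunits and 0.04 for all genes tested. The 95% intervals reached a median of 0.46 log2 units to either side and together spanned -0.81 to 0.75. Differences smaller than about 0.46 in a given subunit could not be told from 0 with these libraries. The intervals are not adjusted for the number of genes, so larger differences could go uncalled as well.

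Leaving out 1 library turned most of the differences below 0 to above 0. Without Myc-labelled replicate 3, 75 of 78 subunits had a log2 difference above 0, where 71.5% of all genes did. The median was then 0.16 for the subunits and 0.11 for all genes, and still 0 subunits passed. The exceptions were Ndufa12, Ndufs7 and Cox7a2l, at -0.05, -0.05 and -0.07. Without control replicate 1 the median was 0.08. Medians by complex were -0.01, 0.00, 0.01, -0.01 and 0.01 for complexes I to V, and 0.16, 0.16, 0.16, 0.11 and 0.17 without Myc-labelled replicate 3.

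**Figure D2:**
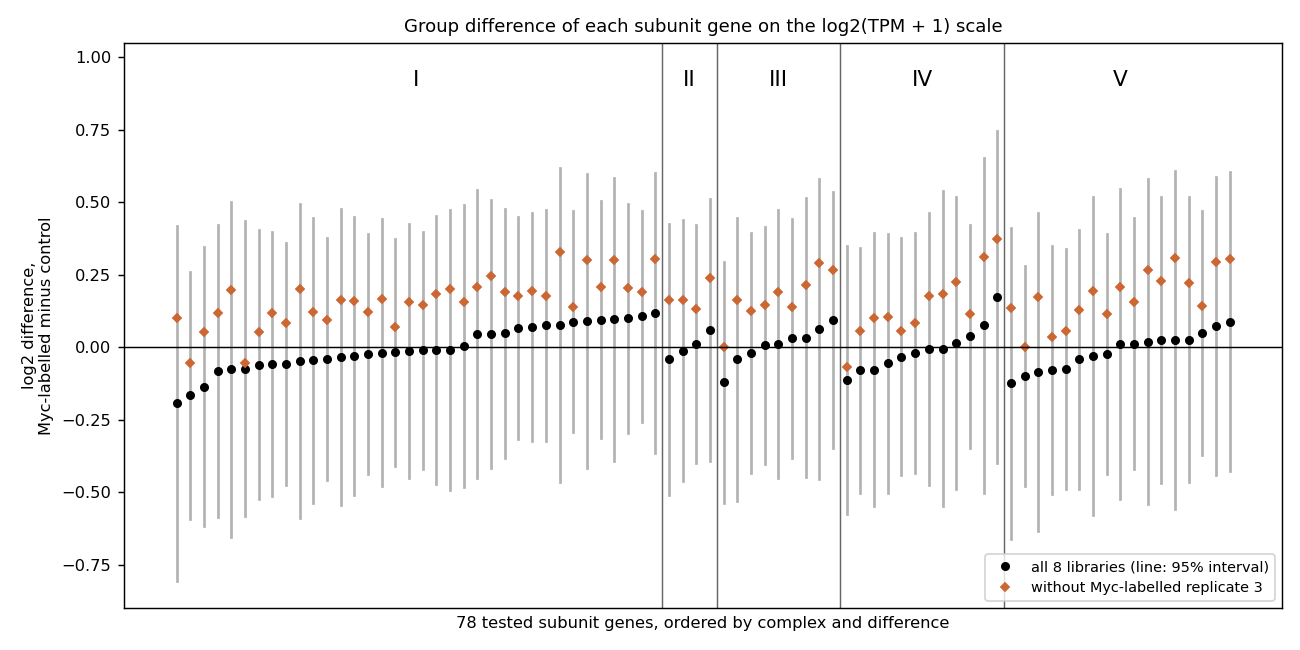
Log2 difference of each of the 78 tested subunit genes, Myc-labelled minus control on the log2(TPM + 1) scale, ordered by complex (I to V) and size. Black points are from all 8 libraries with their 95% intervals, every one of which covers 0; orange diamonds, from the 7 libraries without Myc-labelled replicate 3, lie above 0 for 75 genes.

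In complex I, the NADH dehydrogenase, the 36 genes split into 15 above and 21 below 0. Ndufa4 had the highest mean of this set. Its product is now counted with complex IV, despite its name, but the sums and shares given here keep it in complex I. Ndufa4 measured 626, 428, 431 and 394 TPM in control replicates 1 to 4 and 499, 514, 317 and 494 TPM in Myc-labelled replicates 1 to 4. One high control and one low Myc-labelled library framed 6 values between 394 and 514 TPM, and the log2 difference was -0.05 ± 0.22 (limma adjusted p = 1.0), and 0.12 without Myc-labelled replicate 3. Ndufb2, an accessory subunit of the membrane arm, had the most negative difference of all subunits. It stood at 39.6, 30.1, 24.4 and 29.1 TPM in control livers and at 29.9, 31.5, 13.9 and 36.8 TPM in Myc-labelled livers. Only the 13.9 TPM of Myc-labelled replicate 3 lay outside the range of the controls, and the difference of -0.19 ± 0.28 became 0.10 without it. Ndufb2 overlaps Braf on the opposite strand, and the sources used here do not say if strand was used in quantification.

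Ndufc1, a small accessory subunit, had the most positive difference in complex I. It measured 28.5, 18.4, 23.8 and 18.2 TPM in control livers and 25.5, 28.9, 15.9 and 27.4 TPM in Myc-labelled livers. The groups overlapped, and the difference was 0.12 ± 0.22. It ran from 0.03 without Myc-labelled replicate 2 to 0.31 without Myc-labelled replicate 3. Ndufs7, a core subunit with an iron-sulfur cluster, had the smallest unadjusted p of the 78, at 0.410 with limma. It measured 154, 118, 98.5 and 121 TPM in control livers and 119, 120, 85.6 and 112 TPM in Myc-labelled livers. Its difference was -0.17 ± 0.19 and it was -0.05 without Myc-labelled replicate 3, and -0.05 without control replicate 1.

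Complex II, succinate dehydrogenase, also belongs to the citric acid cycle and is encoded in the nucleus alone. Sdha, the flavoprotein that oxidises succinate, stood at 154, 159, 174 and 173 TPM in control livers and at 213, 197, 118 and 176 TPM in Myc-labelled livers. Every Myc-labelled library except replicate 3 was above all controls, and the difference was 0.06 ± 0.21. It was 0.24 when Myc-labelled replicate 3 was left out, and -0.04 or -0.01 when replicate 1 or 2 of that group was. Sdhb, the iron-sulfur subunit, measured 184 ± 18.2 and 186 ± 41.5 TPM in the control and Myc-labelled libraries (-0.01 ± 0.21). Of the membrane anchors, Sdhc measured 64.2 ± 6.73 and 63.9 ± 16.0 TPM (-0.04 ± 0.21), and Sdhd 196 ± 8.91 and 201 ± 40.6 TPM (0.01 ± 0.19). The differences of Sdhb, Sdhc and Sdhd were 0.16, 0.16 and 0.13 without Myc-labelled replicate 3.

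In complex III, the cytochrome bc1 complex, 6 of 9 genes were above 0. Uqcrh, the hinge subunit, had the highest mean of this complex, at 238 ± 28.5 TPM in control livers and 237 ± 59.4 TPM in Myc-labelled livers (-0.04 ± 0.22, and 0.16 without Myc-labelled replicate 3). Uqcrc2, a large core subunit, stood at 149, 136, 135 and 134 TPM in control livers and at 186, 164, 103 and 153 TPM in Myc-labelled livers. Here 3 Myc-labelled libraries exceeded every control and the other was the lowest of all, for a difference of 0.09 ± 0.20. It was 0.27 with Myc-labelled replicate 3 left out and -0.01 with replicate 1 left out. Uqcr10, a small subunit, had the most negative difference, at -0.12 ± 0.19. It measured 227, 196, 234 and 173 TPM in control livers and 212, 201, 146 and 205 TPM in Myc-labelled livers. Its difference was 0.00 without Myc-labelled replicate 3.

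In complex IV, 4 of the 12 tested genes were above 0 and 8 below. Cox4i1, the ubiquitous form of the regulatory subunit 4, had the highest mean, at 643 ± 93.1 TPM in control livers and 634 ± 87.1 TPM in Myc-labelled livers (-0.02 ± 0.19, and 0.09 without Myc-labelled replicate 3). The most positive difference of all 78 genes, 0.17 ± 0.26, was that of Cox6c2, which was listed at only 1.83 to 4.95 TPM. It ran from 0.01 without control replicate 2 to 0.37 without Myc-labelled replicate 3. GENCODE M21 lists Cox6c2 as a processed pseudogene; it resembles Cox6c, which stood at 178 to 385 TPM, and reads may be split between such copies, so its value is uncertain. Cox7a2l, whose product joins complexes III and IV into supercomplexes, had the most negative difference in this complex. It stood at 245, 214, 152 and 156 TPM in control livers and at 211, 183, 158 and 149 TPM in Myc-labelled livers. Each group held a pair of high and a pair of low libraries, and the difference was -0.11 ± 0.21. It was -0.07 without Myc-labelled replicate 3 and 0.01 without control replicate 1.

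Several complex IV subunits exist in forms known from muscle, lung or testis, and those forms were nearly or wholly silent. Cox4i1 made up 99.87% to 100% of the summed Cox4i TPM, and Cox4i2, the lung form, reached at most 0.833 TPM. Cox6a2 and Cox8b, both known from heart and skeletal muscle, were listed at 0 in 7 of 8 libraries and reached 0.317 and 0.215 TPM in the other one. Cox7a1, another muscle form, ranged from 0 to 1.59 TPM and took at most 0.487% of the Cox7a sum, which includes Cox7a2 and Cox7a2l. Cox6b2, a testis form, ranged from 0 to 1.22 TPM. Cox7b2 and Cox8c, also testis forms, were listed at 0 in every library, as was the second gene ID named Atp5o (ENSMUSG00000116933.1). These 8 genes made up the members below the filter, and no fold is given for them. Marker lists for those tissues were equally low: the 10 muscle markers summed to 0.187 to 1.06 TPM with Ckm, Myh4 and Myh7 at 0, and all 6 testis markers were at 0 in every library.

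The counterparts used by liver were all well expressed. Cox6a1 ranged from 409 to 548 TPM with a difference of 0.04 ± 0.18, Cox8a from 305 to 502 TPM (-0.08 ± 0.19) and Cox6b1 from 135 to 255 TPM (-0.08 ± 0.21). Cox7b ranged from 124 to 209 TPM (-0.05 ± 0.20). Cox7a2, the liver form of subunit 7a, ranged from 95.7 to 185 TPM (0.01 ± 0.23). The differences of Cox6a1, Cox8a, Cox6b1, Cox7b and Cox7a2 were 0.12, 0.06, 0.10, 0.10 and 0.22 without Myc-labelled replicate 3. Cox7a2 and Cox7a2l took 37.6% to 53.6% and 46.1% to 62.0% of the Cox7a sum.

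In complex V, 9 of 17 tested genes were above 0. Atp5b, the catalytic beta subunit, had the highest mean of all subunits, at 912, 982, 891 and 902 TPM in control livers and 1058, 1056, 626 and 915 TPM in Myc-labelled livers. The controls lay close together and the Myc-labelled libraries on both sides of them (-0.04 ± 0.20, and 0.13 without Myc-labelled replicate 3). Atp5c1, the gamma subunit of the central stalk, stood at 306, 282, 298 and 272 TPM in control livers and at 325, 329, 155 and 300 TPM in Myc-labelled livers. Its difference, the most negative of the complex at -0.12 ± 0.24, was 0.13 without Myc-labelled replicate 3. The rotor ring is built from a c subunit encoded by 3 genes. Atp5g3 contributed 58.6% to 63.8% of their sum, Atp5g1 16.6% to 21.9% and Atp5g2 17.3% to 24.1%. Atp5g3 had the most positive difference of the complex, at 0.09 ± 0.23, with 549 ± 78.1 TPM in control livers and 599 ± 160 TPM in Myc-labelled livers. It was 0.30 with Myc-labelled replicate 3 left out and -0.03 with replicate 1 left out. Atp5g1 differed by 0.07 ± 0.23 and Atp5g2 by 0.05 ± 0.19, or by 0.29 and 0.14 without Myc-labelled replicate 3. None of these differences passed (limma adjusted p = 1.0 for each member named).

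The libraries differed far more than the groups. Myc-labelled replicate 3 had the lowest value of all 8 libraries in 72 of 78 subunits, whereas it was lowest in 35.5% of all genes tested. The 6 exceptions were Ndufa12, Ndufv3 and Cox6c2, lowest in control replicate 2, Cox5b and Atp5g2, lowest in control replicate 4, and Cox7a2l, lowest in Myc-labelled replicate 4. By complex it was lowest in 34 of 36, 4 of 4, 9 of 9, 9 of 12 and 16 of 17 genes. The mean of the other 7 libraries was 1.46 times its level for the sum of complex I, 1.47 for complex II, 1.49 for complex III, 1.40 for complex IV and 1.54 for complex V. Against the mean of the other Myc-labelled libraries, the median log2 difference of this library was -0.69 over the 77 subunits with a transcript length, and -0.31 over all genes.

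Control replicate 1 had the highest value in 35 of 78 subunits, against 11.0% of all genes. The complexes were unequal in this: it was highest in 10 of 12 genes of complex IV and 18 of 36 of complex I, but in 6 of 17 of complex V, 1 of 9 of complex III and 0 of 4 of complex II. The highest values of the remaining subunits lay in Myc-labelled replicate 1 (20), replicate 2 (16) and replicate 4 (6) and in control replicate 3 (1). Ndufa12, an accessory subunit of complex I, stood at 91.4 TPM in control replicate 1, and at 42.3, 48.7 and 45.9 TPM in the other controls and 50.7, 56.8, 49.4 and 49.6 TPM in Myc-labelled livers.

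Within complexes I, III and V the summed level of control replicate 1, relative to the other controls, was higher outside the catalytic core. This division into core and other subunits was made after the values were seen. The 7 nuclear-encoded core subunits of complex I summed to 1.14 times the mean of the other controls, and the 29 others to 1.34 times. For the 5 subunits of the soluble F1 head of complex V the ratio was 1.01, and for the 12 others 1.26. Cyc1 and Uqcrfs1, the redox subunits of complex III, gave 1.10 and the 7 others 1.18. In Myc-labelled replicate 3 the corresponding ratios to the other Myc-labelled libraries were similar across these sets, from 0.598 to 0.695. Abundant members weigh most in such sums, and single members did not all follow them. In control replicate 1 the core members Uqcrfs1 (241 TPM, other controls 198 to 203) and Atp5e (238 TPM, others 159 to 200) were high. Cyc1 (158 TPM, others 155 to 171) and Atp5b (912 TPM, others 891 to 982) were not. Outside the core, Uqcrc1 (212 TPM, others 198 to 222) was not high either. The subunits are short, with a median transcript length of 659 bases against 2058 for all genes with a length. In control replicate 1 the log2 difference from the other controls fell with transcript length, with Spearman's rho of -0.35 across the 77 subunits and -0.31 across 11252 genes, which are not independent replicates. In Myc-labelled replicate 3 rho was 0.10 and 0.22. The part of transcript length in these patterns was not tested.

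**Figure D3:**
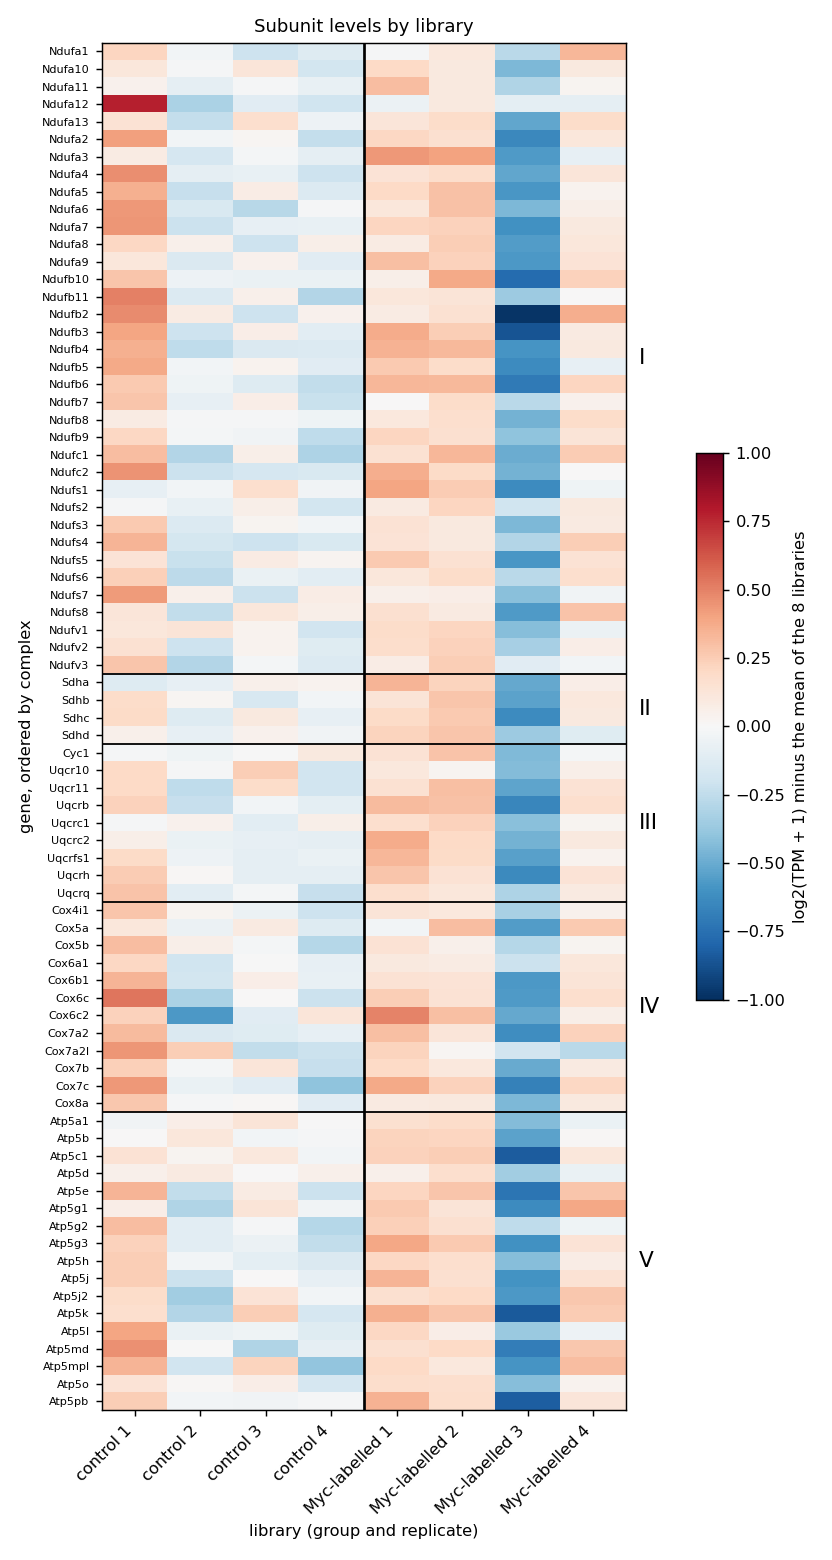
Level of each of the 78 tested subunit genes (rows, by complex) in each library (columns), as log2(TPM + 1) minus its mean over the 8 libraries; red is above and blue below the mean, and values past 1 in size take the end colours. Myc-labelled replicate 3 is blue in nearly every row, and control replicate 1 is red in most rows of complexes I and IV.

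The average subunit, as the mean of log2(TPM + 1) after each gene was centred, was 0.24, -0.11, -0.01 and -0.11 in control replicates 1 to 4. In Myc-labelled replicates 1 to 4 the same mean was 0.20, 0.19, -0.50 and 0.10. The median of all genes stood at -0.21 in Myc-labelled replicate 3, so the subunits were lower there than the bulk of genes. Rescaling the libraries by the median of ratios left Myc-labelled replicate 3 at -0.26 and control replicate 1 at 0.31, but put Myc-labelled replicate 1 at -0.07. Other measures moved with Myc-labelled replicate 3, and their part in its low subunits was not tested. The acute phase genes Saa1 and Saa2 summed to 52528 TPM there, or 5.25% of the library, and to 471 to 19436 TPM in the other 7. Of 10 macrophage markers 9 were lowest in it, with a summed level of 674 TPM against 841 to 1753 TPM elsewhere. The 14 hepatocyte markers summed to 74404 TPM, inside the range of the controls (69448 to 127741 TPM), a sum in which Alb alone made up 42693 TPM. With each marker centred on the log2 scale, their mean was -0.48 in this library, against -0.54 in control replicate 2 and -0.26 to 0.45 in the other 6. The 11 endothelial markers summed to 138 TPM, against 165 to 255 TPM in the controls and 130.1 to 221 TPM in the other Myc-labelled libraries. Stellate cell and cholangiocyte markers summed to 50.3 and 165 TPM, both above control replicate 2 (37.1 and 135 TPM) and below the other libraries. Neutrophil markers summed to 6650.5 TPM, the highest of the 8 libraries, while their centred log2 mean was -0.41.

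Subunits moved together from library to library. Over all pairs of the 78 subunits the median Pearson r of log2(TPM + 1) was 0.83, and 0.66 without Myc-labelled replicate 3. Over 200000 pairs drawn from all tested genes it was 0.19 and 0.14. By complex the median was 0.82, 0.86, 0.85, 0.84 and 0.85 for complexes I to V. The genes most like the mean subunit were Ndufb3 of complex I (r = 0.99) and Uqcrb of complex III (r = 0.98). The least like it were Cox7a2l (0.48), Ndufa12 (0.50) and Ndufv3 (0.69). These correlations describe 8 libraries that share their composition and scaling.

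The subunits encoded by the mitochondrial genome did not show this pattern. The 13 mitochondrial messages summed to 77233, 80294, 91761 and 72629 TPM in control livers and to 105667, 93776, 95117 and 102284 TPM in Myc-labelled livers. All 4 Myc-labelled sums lay above all controls, with the lowest at 93776 TPM against 91761 TPM in the highest control. Among single genes 1.26% separated the groups in either direction, a share that cannot be set against a sum of 13 genes. Myc-labelled replicate 3 was in the midst of its group. It was the lowest of the 8 libraries in 1 of the 13 genes. The log2 difference was above 0 in 13 of 13, against 58.0% of all genes, with a median of 0.29 against 0.04. The 13 genes are not independent replicates. With limma 0 of 13 passed, and 1 had an unadjusted p under 0.05, against 1.86% of all genes. That gene was mt-Nd2, a core subunit of complex I, at 5115 ± 321 TPM in control livers and 7533 ± 1244 TPM in Myc-labelled livers (0.55 ± 0.18, limma adjusted p = 1.0). mt-Nd5, another core subunit, followed at 3615 ± 638 and 4648 ± 443 TPM (0.38 ± 0.19).

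The ratio of mitochondrial to nuclear subunit TPM was 4.74, 6.001, 6.63 and 5.63 in control livers and 6.61, 5.93, 9.53 and 6.90 in Myc-labelled livers. It was lowest in control replicate 1 and highest in Myc-labelled replicate 3, the libraries with the highest and lowest nuclear sums, and the groups overlapped. The means were 5.75 ± 0.788 and 7.24 ± 1.58. How much mitochondrial RNA the library kit captured relative to nuclear messages was not tested.

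**Figure D4:**
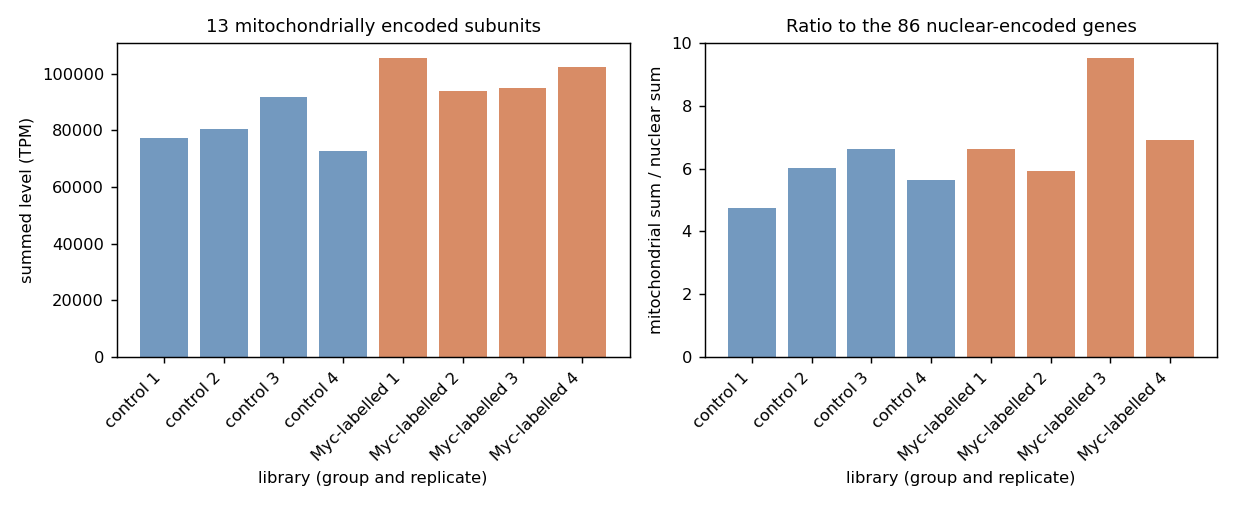
Left, summed TPM of the 13 mitochondrially encoded subunits in each library; right, the ratio of that sum to the summed TPM of the 86 nuclear-encoded genes (control bars blue, Myc-labelled bars orange). Myc-labelled replicate 3 has 95117 TPM of mitochondrial messages, inside the range of its group, and the highest ratio, 9.53.

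Since Myc did not follow the labels, each subunit was also set against the Myc level over all 8 libraries. Pearson's r of log2(TPM + 1) was above 0 in 78 of 78 subunits, against 73.8% of all genes. The median was 0.79 for the subunits and 0.27 for all genes, and the median Spearman's rho was 0.64 and 0.19. After adjustment over 13054 genes, 0 subunits and 0% of all genes passed 0.05 by the exact permutation test over all 40320 pairings. The smallest adjusted p of a subunit was 0.602. Before adjustment, 58 subunits had an exact p under 0.05 for r, against 7.89% of all genes, and 20 had one for rho, against 3.91%. The subunits moved together (median r 0.83 between pairs), so they are not independent replicates. The same limit holds for the other counts of subunits above and below. By complex the median r was 0.79, 0.78, 0.78, 0.75 and 0.82 for complexes I to V.

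The size of the relation depended on which libraries were kept. Without Myc-labelled replicate 3 the median r was 0.44 for the subunits and 0.04 for all genes. Then 71 of 78 subunits had r above 0, against 54.9% of all genes. Of these 78, 5 had an exact permutation p under 0.05, against 2.58% of all genes. Myc-labelled replicate 3 and control replicate 4 were the libraries with the least Myc and, on the log2 scale, those farthest from its median. Without both the median r was 0.13 for the subunits and 0.04 for all genes. It was above 0 in 47 of 78 subunits against 53.6% of all genes, and 0 subunits against 3.12% of genes had an exact permutation p under 0.05. Leaving out that pair also narrowed Myc from 25.6 to 554 TPM down to 207 to 554 TPM. A lower r over those 6 libraries therefore cannot tell if the relation rested on the pair. On the TPM scale the farthest were control replicate 3 and Myc-labelled replicate 3. Without them, an alternative chosen after seeing the data, the median r was 0.69, with r above 0 in 78 of 78 subunits against 59.7% of all genes. Within the groups, by correlating what remained after each group mean was taken out, the median r was 0.82, which keeps Myc-labelled replicate 3. A limma slope on log2 Myc, added after the data were seen, called 0 subunits at an adjusted p of 0.05, against 0.0306% of genes. At an unadjusted p under 0.05 it gave 49 subunits against 9.46% of genes. With the group as a term the counts were 0 subunits against 0.00766% of genes adjusted, and 44 against 8.95% unadjusted. Without Myc-labelled replicate 3 they were 0 against 0% adjusted, and 1 against 2.91% unadjusted.

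The 3 subunits with the highest r came from 3 complexes. Ndufa10, an accessory subunit of complex I, stood at 104, 95.5, 105 and 84.6 TPM in control livers and at 111, 103, 70.2 and 103 TPM in Myc-labelled livers. The 2 lowest values were those of the libraries with the least Myc. Its r with Myc was 0.96 (exact permutation p = 0.00191, adjusted p = 0.602) and rho 0.88 (exact permutation p = 0.00724), and without the pair of libraries farthest on the log2 scale r was 0.56. Uqcr10, described above, had r of 0.96 (exact permutation p = 0.00151, adjusted p = 0.602), rho of 0.83 (exact permutation p = 0.0154) and r of 0.67 without the pair. Atp5o, the stalk subunit that confers sensitivity to oligomycin, stood at 251, 230, 239 and 203 TPM in control livers and at 257, 257, 170 and 234 TPM in Myc-labelled livers. Its r was 0.94 (exact permutation p = 0.00456, adjusted p = 0.602) and rho 0.83 (exact permutation p = 0.0154), with r of 0.36 without the pair.

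At the other end, Ndufa12 had r of 0.21 (exact permutation p = 0.564) and rho of 0.43 (exact permutation p = 0.299). Cox7a2l had r of 0.28 (exact permutation p = 0.532) and rho of 0.00 (exact permutation p = 1.0). Ndufv3, a flavoprotein-module subunit of complex I, had r of 0.43 (exact permutation p = 0.285) and rho of 0.69 (exact permutation p = 0.0694). Ndufv3 stood at 71.8, 48.3, 58.3 and 53.8 TPM in control livers and at 62.2, 70.5, 54.7 and 58.0 TPM in Myc-labelled livers, so Myc-labelled replicate 3 was not the lowest of the 8 in it. Without the farthest pair r was -0.02, -0.45 and 0.32 for Ndufa12, Cox7a2l and Ndufv3.

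For the sum of all subunits r with Myc was 0.86 over 8 libraries, 0.52 without Myc-labelled replicate 3 and 0.04 without the farthest pair, given as a description without a test. Control replicate 3, with the most Myc (554 TPM), had a subunit sum of 13848 TPM, below that of 4 libraries with less Myc.

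**Figure D5:**
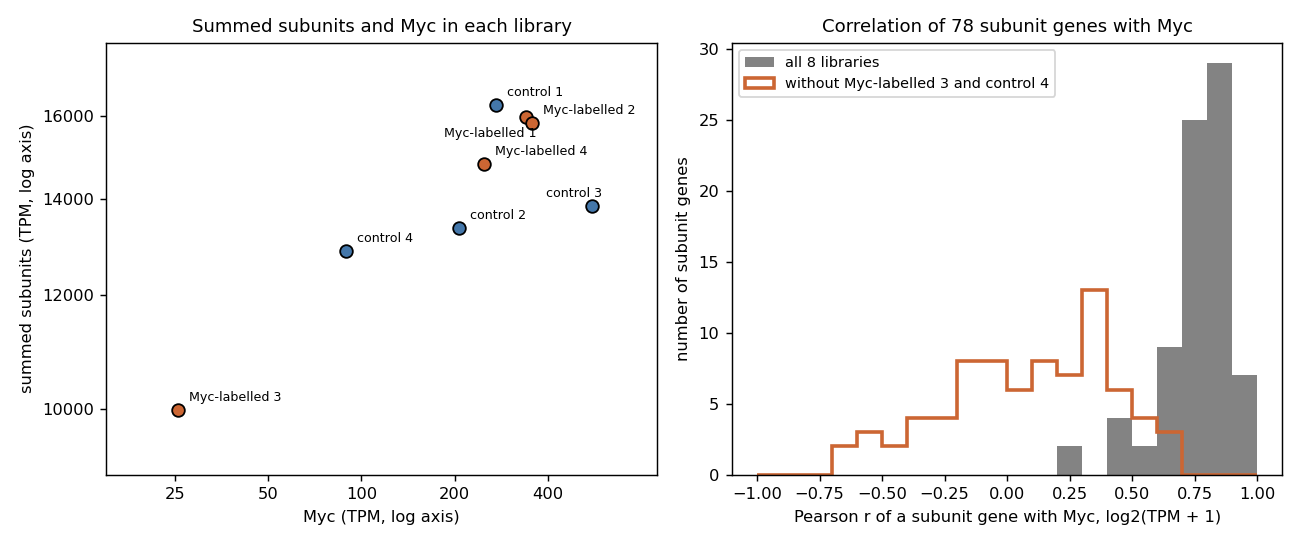
Left, summed TPM of the subunits against Myc TPM in each library, both on log axes (control blue, Myc-labelled orange); right, number of subunit genes at each Pearson r with Myc. Myc-labelled replicate 3 lies at the lower left with 25.6 TPM of Myc; the correlations of all 8 libraries (grey, median 0.79) move to a median of 0.13 without Myc-labelled replicate 3 and control replicate 4 (orange line).

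Because the subunits moved together, their promoters were searched for short patterns bound by factors known to act on such genes. The windows, from RefSeq on GRCm38.p6, run from 250 bases before to 50 bases after a gene's start; 68 of 85 symbols matched, with 73 windows, beside 32851 windows of all genes. Both strands were searched, and no pattern holds another. The E-box CACGTG, bound by Myc with Max, was in 9.59% of subunit windows, 7.15% of all windows and 9.87% of windows of tested genes. The pattern GCGCANGCG of Nrf1, nuclear respiratory factor, was in 28.8% of subunit windows against 6.25% of all and 12.8% of tested genes. CCGGAAG, of the ETS family to which Gabpa belongs, was in 23.3%, 8.86% and 17.2%. AAGATGGCG, of Yy1, was in 9.59%, 1.403% and 2.98%, and CAAGGTCA, of the estrogen-related receptors, in 5.48%, 1.56% and 1.09%. A match describes letters only, not binding.

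The E-box was found in the windows of 6 subunits: Atp5g1, Atp5g3, Atp5l, Atp5pb, Ndufa7 and Ndufv1. Their median r with Myc was 0.81, and that of the 58 tested subunits with a window but no E-box was 0.78. The sequences below show the bases before the start of 5 subunits, 5′ to 3′ on the gene's strand, with the searched patterns in capitals, also where they read on the other strand. Atp5g3 (chr2:73911327-73911576, minus strand) is shown for its E-box near the distal end and its estrogen-related receptor pattern. Ndufb4 (chr16:37654454-37654618, minus strand), an accessory subunit of complex I, is shown up to its deposited gene end for an Nrf1 pattern. Further Nrf1 matches of Ndufb4 lie nearer the start, past that end, and are not shown. Ndufb6 (chr4:40279422-40279671, minus strand) is shown for its ETS pattern. Uqcr10 (chr11:4704345-4704594, minus strand) had one of the 3 highest r with Myc and held none of the patterns here. Cox7a2l (chr17:83514334-83514583, minus strand), the subunit least like the others, also held none; this window lies inside its deposited coordinates, before a start within the gene.
Atp5g3: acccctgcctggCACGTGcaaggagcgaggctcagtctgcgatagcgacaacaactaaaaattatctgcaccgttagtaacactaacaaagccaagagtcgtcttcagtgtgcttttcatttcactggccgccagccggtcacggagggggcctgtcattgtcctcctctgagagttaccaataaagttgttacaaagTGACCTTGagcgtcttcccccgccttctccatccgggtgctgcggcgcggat
Ndufb4: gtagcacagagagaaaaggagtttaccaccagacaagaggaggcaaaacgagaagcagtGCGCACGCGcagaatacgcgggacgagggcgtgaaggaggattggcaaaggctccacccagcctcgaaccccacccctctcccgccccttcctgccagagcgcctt
Ndufb6: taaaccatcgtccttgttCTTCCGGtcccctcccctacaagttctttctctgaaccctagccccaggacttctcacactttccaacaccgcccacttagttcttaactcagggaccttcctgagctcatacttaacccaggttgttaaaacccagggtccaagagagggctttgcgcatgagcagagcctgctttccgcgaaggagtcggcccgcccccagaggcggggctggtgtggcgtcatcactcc
Uqcr10: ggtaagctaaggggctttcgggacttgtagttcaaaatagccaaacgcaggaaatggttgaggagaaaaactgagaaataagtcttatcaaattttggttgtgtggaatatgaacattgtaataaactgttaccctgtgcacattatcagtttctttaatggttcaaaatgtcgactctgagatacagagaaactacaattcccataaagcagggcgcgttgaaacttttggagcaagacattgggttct
Cox7a2l: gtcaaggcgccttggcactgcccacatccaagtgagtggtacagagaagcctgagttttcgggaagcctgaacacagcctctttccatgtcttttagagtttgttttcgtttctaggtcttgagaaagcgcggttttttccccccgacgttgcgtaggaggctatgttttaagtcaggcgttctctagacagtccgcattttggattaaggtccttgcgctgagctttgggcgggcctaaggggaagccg

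Of the factors known to bind these patterns, Nrf1 measured 6.31 ± 1.06 TPM in control livers and 6.88 ± 1.36 TPM in Myc-labelled livers, Gabpa 13.03 ± 1.31 and 13.6 ± 2.60 TPM, and Yy1 16.3 ± 0.699 and 17.7 ± 2.13 TPM. Ppargc1a, the coactivator known as a main regulator of mitochondrial biogenesis, measured 5.47 ± 1.14 and 6.98 ± 2.89 TPM. None of the 19 tested regulators passed with limma; 13 were above and 6 below 0, with a median of 0.08. The smallest p-values in this list were those of the mitochondrial deacetylase Sirt3, at 63.9 ± 14.7 and 49.5 ± 16.2 TPM (-0.39 ± 0.25), and of the estrogen-related receptor Esrra, at 28.7 ± 5.02 and 23.1 ± 6.24 TPM (-0.32 ± 0.22). Myc-labelled replicate 3 was lowest in 6 of these 19 genes, where it was lowest in 35.5% of all genes.

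Genes that build or feed the complexes were examined in the same way, and 0 passed with limma in any list; 0 had an unadjusted p under 0.05 in these lists or among the regulators. Of 44 assembly factors 20 were above and 24 below 0, with a median of -0.03. Coa6, a complex IV assembly factor that handles copper, measured 71.0 ± 17.3 TPM in control livers and 53.7 ± 15.2 TPM in Myc-labelled livers (-0.41 ± 0.24). Pet100, another complex IV assembly factor, was at 3.14 ± 1.18 and 4.21 ± 0.602 TPM (0.37 ± 0.23). Of 18 citric acid cycle genes 9 were above and 9 below 0, with a median of 0.01. Citrate synthase (Cs) stood at 46.9, 45.6, 48.3 and 48.3 TPM in control livers and at 74.4, 64.9, 39.7 and 73.3 TPM in Myc-labelled livers. All controls fell between Myc-labelled replicate 3 and the other Myc-labelled libraries (0.37 ± 0.21). Pdhx, a component of the pyruvate dehydrogenase complex, showed the same order at 12.2 ± 0.417 and 15.4 ± 3.92 TPM (0.28 ± 0.18).

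Carriers, ubiquinone synthesis and the import machinery gave similar counts. Of 20 carrier and ubiquinone genes 11 were above and 9 below 0, with a median of 0.06. The ubiquinone synthesis genes Coq4, at 4.27 ± 0.725 and 5.45 ± 0.930 TPM (0.29 ± 0.18), and Coq7, at 45.9 ± 5.65 and 54.0 ± 9.27 TPM (0.22 ± 0.18), had the smallest p-values. Of 24 import genes 16 were above 0, with a median of 0.04; Timm22, of the inner membrane translocase, measured 5.18 ± 0.808 and 6.49 ± 1.23 TPM (0.27 ± 0.18). Pmpca, of the peptidase that removes import signals, measured 31.9 ± 3.94 and 37.2 ± 5.09 TPM (0.21 ± 0.16). Of 5 tested uncoupling and inhibitor genes 3 were above 0, among them Ndufa4l2, a hypoxia-induced relative of Ndufa4, at 2.49 ± 0.505 and 3.01 ± 0.919 TPM (0.19 ± 0.22). Higd1a, an inner membrane protein, was below 0 at 20.2 ± 5.29 and 18.4 ± 4.23 TPM (-0.13 ± 0.23). Myc-labelled replicate 3 was the lowest library in 16 of 20 carrier and ubiquinone genes, 15 of 18 citric acid cycle genes, 15 of 24 import genes and 26 of 44 assembly factors, beside the 35.5% of all genes. Without it the median log2 difference was 0.21, 0.18, 0.20 and 0.18 for these lists in the same order. It was 0.12 for the regulators, 0.22 for the uncoupling and inhibitor genes and 0.11 for all genes.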

How the data were processed

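Liver RNA of 8 mice was sequenced after extraction with TRIzol; the libraries were built with an mRNA kit, as the labels' protocols state. The submitters' processing notes name HISAT2, StringTie and mm10 and give no versions; the sources used here do not give strand or how reads shared by near-identical genes were handled. The authors deposited TPM, FPKM and coverage (a signal not scaled for depth) per gene, per the file headers, without read counts. TPM was the main unit. Rows repeating a gene ID, 10 to 15 a library, were added up. All 86 subunit genes had the same coordinates in GENCODE M21.

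Groups came from the sample titles. Differences of log2(TPM + 1) were tested with limma 3.58.1 (R 4.3.3; trended, robust, two-sided) over the 13055 genes averaging 1 TPM or more and adjusted by Benjamini-Hochberg at 0.05. Relations to Myc used exact two-sided permutation over all 40320 pairings and adjustment over 13054 genes. Labels do not say whether the numbered animals share a litter or batch. The limma p-values set a difference against the spread between these animals, and the permutation p-values set r or rho against all pairings. Both treat the animals as independent. Both tests were run on simulated data with added effects, as a check of the code only. Noise was drawn independently for each simulated gene, whereas the subunits here moved together. Python 3.11.15, pandas 2.3.3, numpy 2.4.6 and scipy 1.17.1 did the rest. Aligned bases were taken as the modal ratio of coverage to FPKM.

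The naming rule that set the members, the lists and the tests were drawn up with earlier results of these data known. Within each complex the text names the member with the highest mean and those with the most positive and most negative difference. It also names the 3 smallest p-values, all Sdh genes, tissue forms, the 3 highest and 3 lowest r with Myc, and 2 genes per pathway list by smallest p; other genes were chosen after their values were seen. Alternatives covered the pseudocount (0.1 and 5), the filter (none and 5 TPM), FPKM, scaling, array weights, the variance model, a block for replicate number and the omission of each library.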

Additional observations from a re-analysis of the deposited data

Results flagged for a closer look

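Of 73 groups of 4 libraries checked for a value far from the others, 12 gave one. Such a value had a gap to the nearest value, over the range, above Dixon's 95% critical value. For independent groups chance gives about 1 in 20. These groups come from the same 8 libraries and the subunits moved together (median r 0.83), so the 12 cannot be set against that rate. In Myc-labelled replicate 3 the value was low in 6 cases and so was the sum of a complex. Complex IV summed to 2391 TPM there, against 3420 to 3548 TPM in the other Myc-labelled libraries. Its subunit genes Cox8a (305 TPM, others 443 to 446), Cox6b1 (135 TPM, others 220.0 to 223) and Cox6a1 (409 TPM, others 503 to 514) were low, as was Ndufa4 (317 TPM, others 494 to 514). Uqcr10 of complex III stood at 146 TPM (others 201 to 212), and Atp5c1 of complex V at 155 TPM (others 300.1 to 329).

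In control replicate 1 the value was high in 4 genes. Ndufa12 stood at 91.4 TPM (other controls 42.3 to 48.7), Ndufa4 at 626 TPM (others 394 to 431), Cox7a2 at 185 TPM (others 134 to 140) and Uqcrc2 at 149 TPM (others 134 to 136). One value came from neither library: Ndufa12 at 56.8 TPM in Myc-labelled replicate 2, against 49.4 to 50.7 TPM.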

How the results depend on the processing

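No subunit passed an adjusted p of 0.05 under any of the 18 settings of the group comparison or the 18 of the relation to Myc. The genes called over all tested were 1 with array weights and 0 otherwise. The median log2 difference of the subunits ranged from -0.07 to 0.16 over the libraries left out, the highest without Myc-labelled replicate 3. It was 0.15 with array weights, where that library weighs 0.42, and -0.05 after median-of-ratios scaling. With array weights the log2 differences of Myc (0.23), Ndufb2 (0.065), Sdhc (0.15), Cox7a2l (0.025) and Atp5c1 (0.084) turned above 0.

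Leaving out each library in turn gave these ranges of log2 difference, all of which cross 0: Myc -0.91 to 0.43, Ndufb2 -0.35 to 0.10, Sdha -0.045 to 0.24, Sdhc -0.13 to 0.16, Uqcrc2 -0.014 to 0.27, Uqcr10 -0.20 to 0.0026, Cox7a2l -0.21 to 0.014, Atp5g3 -0.025 to 0.30 and Atp5c1 -0.23 to 0.13. The most positive differences stayed above 0 but moved, Ndufc1 from 0.030 to 0.31 and Cox6c2 from 0.0096 to 0.37. The median r of the subunits with Myc ranged from 0.44 (without Myc-labelled replicate 3) to 0.88, and was 0.13 without the 2 libraries farthest from the median of Myc on the log2 scale. There r was -0.45 for Cox7a2l and -0.023 for Ndufa12. Scaling turned the lowest correlations below 0: Cox7a2l gave -0.0096 after median-of-ratios scaling and -0.19 after quantile normalization, and Ndufa12 and Ndufv3 gave -0.12 and -0.14 after quantile normalization. The median r was 0.63 and 0.59 under these scalings. The cause of these changes was not tested.

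Replicate numbers showed no clear pairing in the values. Deviations from the group means correlated at 0.13, -0.06, 0.07 and 0.07 for numbers 1 to 4. Control replicate 2 correlated best with Myc-labelled replicate 3 (0.22). These correlations cannot tell whether animals of the same number share a litter or batch. With the replicate block 0 genes were called and the median log2 difference was -0.01, as without it. TPM does not report the counting error that each value holds, so that error could not be told from other spread between libraries. With 4 libraries per group, that spread limits what could be seen. A planned run without genes whose place in their named complex is in doubt left out Ndufa4 and Cox7a2l only (median -0.01).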
